A study of Mus musculus with 8 samples.

Results

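The genes described here are 10 genes known for their response to glucocorticoids or to metals, namely Nr3c1, Fkbp5, Tsc22d3, Zbtb16, Klf9, Sgk1, Pdk4, Cdkn1a, Mt1 and Mt2. They were chosen by gene name, and all 10 were on the array, where 14 of 39429 probes carried one of these names, against 29608 gene names in all. Of the 14 probes, 13 passed the filter on dim probes (signal well above background in 1 or both channels of each array), as did 30351 probes in the whole series. Where a gene had more than 1 probe, the brightest is meant unless another is named.

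Glucocorticoids are steroid hormones of the adrenal cortex that enter cells and bind the glucocorticoid receptor, the product of Nr3c1. The receptor waits in the cytoplasm in a complex of chaperones, moves to the nucleus once it holds the hormone, and binds DNA at glucocorticoid response elements, so that its targets rise within the hour. Fkbp5 codes for a co-chaperone that lowers the receptor's affinity for the hormone and so closes a feedback loop. Tsc22d3, also called GILZ, carries part of the anti-inflammatory action, Zbtb16 and Klf9 are transcription factors, Sgk1 is a kinase that regulates ion channels and transporters, Pdk4 restrains the pyruvate dehydrogenase complex, and Cdkn1a codes for the cell cycle inhibitor p21. Mt1 and Mt2 code for small cysteine-rich proteins that bind zinc and other metals, and both are known to rise with metals, through the factor MTF1, and with glucocorticoids. In skin these hormones are best known for damping inflammation and for thinning the epidermis.

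PACAP is a neuropeptide, and PAC1R, the product of Adcyap1r1, is its preferred receptor. Male C57BL/6 mice (WT) and male Adcyap1r1 -/- mice (PAC1R KO), from 9 to 10 weeks old, were anaesthetised with midazolam, medetomidine and butorphanol. They then received 5 µL of vehicle (saline with 0.1% BSA) in the footpad, either alone or with PACAP at 1e-07 mol/L, and forepaw skin was taken 30 or 60 min later. All groups thus shared the anaesthesia, the needle and the saline, and skin that had received no injection was not among the groups. The methods speak of 6 mice per genotype but do not say which mice entered each RNA sample or whether RNA was pooled. The 8 RNA samples (2 genotypes by 2 time points by 2 treatments) were hybridised as 4 pairs of PACAP and vehicle, each pair on 2 Agilent arrays with swapped Cy3 and Cy5 dyes. The swapped arrays measured the same RNA and were counted as 1 replicate, so PACAP and vehicle were never compared across replicate animals. The WT and the KO arrays were on a slide each, which means that genotype cannot be told apart from slide, whereas both time points were on each slide.

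The share of spots well above background was 78.6% to 94.5% for red and 54.0% to 65.3% for green, and with so few arrays every value has limited precision. Once ratios were turned to PACAP over vehicle, the swapped arrays of a pair correlated between -0.54 and -0.31 over all probes. Over the 20278 probes with both channels well above background on every array, they correlated between 0.19 and 0.65. Direction was taken from the dyes named in the labels, which these correlations do not check. The probe for Adcyap1r1, the gene deleted in the KO mice, read 8.27 to 8.76 on the log2 scale in the WT samples and 7.91 to 8.56 in the KO samples, and was well above background in all 8 WT and all 8 KO channels. The sources used here do not say whether this probe lies in the deleted part, so it checks no label. Of the skin cell markers, all 8 keratinocyte genes were measured, and their summed linear level lay between 232741 and 396944 in the 8 samples. Skeletal muscle markers were also present, with a summed level between 31317 and 87824, as were hair shaft markers, between 4816 and 25716. In such bulk tissue, fewer cells of a type and less RNA per cell cannot be told apart.

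To show what the receptor and MTF1 are known to bind, the promoters of 4 genes are given, chosen because each holds a match to a searched element in the 250 bases before a transcription start. RefSeq windows (GRCm38.p6) were used for 8 of the 10 genes, with 16 starts in all. No window was used for Nr3c1 or Zbtb16, which does not mean that RefSeq holds none. Elements were searched on both strands in 32817 windows of this length. The glucocorticoid response element was written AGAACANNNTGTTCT and its single arm, which lies inside it, AGAACA, the metal response element cores were written TGCGCNC and TGCACNC, and the cAMP response element was written TGACGTCA. The full glucocorticoid element stood in 0.00914% of all windows and at 1 of the 16 member starts, in Sgk1. Its single arm stood in 16.1% of all windows and at 4 member starts, 3 of Sgk1 and 1 of Tsc22d3. The core TGCGCNC stood in 12.5% of all windows and at 1 member start, in Mt2, and TGCACNC stood in 10.4% and at 2, in Mt1 and Mt2. The cAMP element, found in 1.55% of windows, stood at 0 member starts. The windows below are on the + strand at chr10:21993640-21993889 (Sgk1), chr8:94178839-94179088 (Mt1) and chr8:94172368-94172617 (Mt2), and on the - strand at chrX:140600523-140600772 (Tsc22d3). Capitals mark the full element in Sgk1, the single arm in Tsc22d3, read on the other strand, and the metal cores in Mt1 and Mt2, with the last core of Mt2 read on the other strand.
Sgk1: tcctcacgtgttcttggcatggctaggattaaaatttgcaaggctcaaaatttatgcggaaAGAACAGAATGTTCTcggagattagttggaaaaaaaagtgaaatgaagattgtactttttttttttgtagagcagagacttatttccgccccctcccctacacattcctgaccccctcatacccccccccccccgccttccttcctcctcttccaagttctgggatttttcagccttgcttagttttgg
Tsc22d3: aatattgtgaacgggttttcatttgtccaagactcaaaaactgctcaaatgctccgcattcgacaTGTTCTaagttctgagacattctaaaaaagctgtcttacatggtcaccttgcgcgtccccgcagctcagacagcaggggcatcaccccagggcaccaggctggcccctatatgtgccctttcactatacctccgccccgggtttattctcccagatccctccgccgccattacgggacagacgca
Mt1: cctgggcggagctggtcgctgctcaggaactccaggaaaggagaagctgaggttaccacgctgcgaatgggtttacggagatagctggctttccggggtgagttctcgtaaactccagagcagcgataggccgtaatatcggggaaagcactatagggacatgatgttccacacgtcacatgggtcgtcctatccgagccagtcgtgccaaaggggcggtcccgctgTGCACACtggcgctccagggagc
Mt2: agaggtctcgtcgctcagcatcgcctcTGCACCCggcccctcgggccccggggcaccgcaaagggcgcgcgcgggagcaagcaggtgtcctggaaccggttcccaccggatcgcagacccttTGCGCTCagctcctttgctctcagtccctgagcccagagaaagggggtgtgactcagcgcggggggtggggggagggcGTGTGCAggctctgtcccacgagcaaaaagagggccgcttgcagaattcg
The full element of Sgk1 began 189 bases before this start, and the single arm of Tsc22d3 began 185 bases before its start. The metal cores began 23 bases before the start of Mt1 and 223, 128 and 50 bases before that of Mt2. A match is a run of letters and not a bound site.

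The first question was whether PACAP moved these genes, and in no comparison did a member pass the thresholds. A probe was counted when its mean ratio was at least 2.0-fold or at most 0.5-fold, both arrays had the same direction, and the scanner software's p-value was below 0.01 on both. By this rule 0 of 14 member probes rose and 0 fell in each of the 4 comparisons. Of all probes, 0.254% were counted as higher and 0.0964% as lower with PACAP in WT mice at 30 min, and 0.583% and 0.109% at 60 min. In KO mice the shares were 0.601% and 0.107% at 30 min and 0.142% and 0.15% at 60 min. At such shares a list of this size would seldom hold a counted probe, so the count of 0 says little of the members. limma, fitted to the 4 comparisons over 30351 probes, called 0 probes for the mean PACAP effect (678 at an unadjusted p below 0.05) and 0 for the difference between KO and WT (972). The background share called by limma was therefore 0% in both.

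The values nevertheless differed in sign between the comparisons. In WT mice at 30 min, 9 of the 10 genes had a mean log2 ratio above 0, each on both arrays, and the median was 0.40 with a range from -0.16 to 0.74. In KO mice at 30 min, 1 of 10 was above 0 and 8 were below 0 on both arrays, with a median of -0.25 and a range from -0.72 to 0.06. At 60 min the numbers above 0 were 4 of 10 in WT mice (median -0.02) and 6 of 10 in KO mice (median 0.11). Of the 23067 gene names that passed the filter on dim probes, 43.3% were above and 55.7% below 0 in WT mice at 30 min, and 48.4% were above and 51.1% below in KO mice at 30 min. At 60 min 46.4% were above 0 in WT mice and 51.2% in KO mice. These ratios are on the log2 scale, and each is the mean of 2 arrays of the same RNA.

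**Figure D1:**
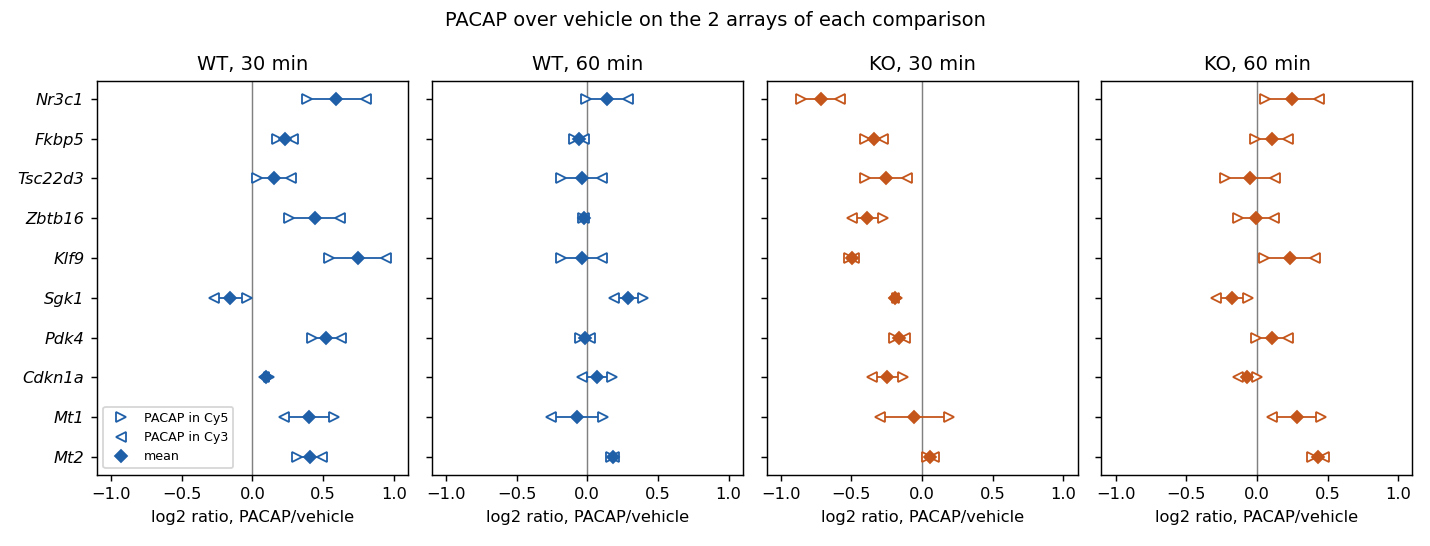
The log2 ratio of PACAP over vehicle (x axis) is plotted for the 10 genes (y axis) in the 4 comparisons, with open triangles for the 2 arrays of a comparison, a line between them and a filled diamond for their mean. In WT mice at 30 min 9 of 10 means lie right of 0, and in KO mice at 30 min 9 of 10 lie left of it.

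The receptor gene and Klf9 had the widest spread. Nr3c1 had log2 ratios of 0.39 and 0.80 on the 2 arrays of WT mice at 30 min and of -0.86 and -0.58 on those of KO mice at 30 min. At 60 min its means were 0.14 in WT mice and 0.25 in KO mice. The dimmer Nr3c1 probe, above background in 13 of 16 channels, had ratios of 0.52 and 0.62 in WT mice and of -0.04 and -1.30 in KO mice at 30 min, so in KO mice its arrays disagreed in size. Klf9 had ratios of 0.54 and 0.94 in WT mice and of -0.52 and -0.48 in KO mice at 30 min, and means of -0.04 and 0.23 at 60 min. For both genes the arrays of the genotypes did not overlap at 30 min, but with 1 pair of RNA samples on each side this compares those samples and not the genotypes. Across both times, the limma difference of the PACAP effect between KO and WT was -0.60 for Nr3c1 (SE 0.36, adjusted p = 0.839) and -0.48 for Klf9 (SE 0.36, adjusted p = 0.839). Without the KO pair at 30 min they were -0.12 and -0.12, and without the WT pair at 30 min -0.38 and -0.093, while without the pairs at 60 min they lay between -1.09 and -0.83.

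The targets of the receptor gave smaller ratios with the same change of sign at 30 min. Pdk4 had a mean of 0.52 in WT mice and -0.16 in KO mice at 30 min, Zbtb16 had 0.44 and -0.39, Fkbp5 had 0.23 and -0.34, and Tsc22d3 had 0.15 and -0.26. At 60 min all 4 of these genes lay between -0.06 and 0.11 in both genotypes. Cdkn1a had means of 0.10 and 0.07 in WT mice and of -0.25 and -0.07 in KO mice at 30 and 60 min. Sgk1, the kinase gene with the full element in one promoter, stood apart, with means of -0.16, 0.29, -0.19 and -0.17 in WT mice at 30 and 60 min and KO mice at 30 and 60 min. The limma difference between KO and WT had an adjusted p of 0.839 or more for all 13 member probes fitted.

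Mt2 was the only one of the 10 genes whose brightest probe had a ratio above 0 on all 8 arrays. Its ratios were 0.32 and 0.49 in WT mice at 30 min, 0.17 and 0.19 in WT mice at 60 min, 0.03 and 0.08 in KO mice at 30 min, and 0.39 and 0.47 in KO mice at 60 min. The mean over the 4 comparisons was 0.27 (SE 0.10, n = 4), and it did not pass in limma (unadjusted p = 0.0362, adjusted p = 1). Mt1, its neighbour on chromosome 8, had means of 0.40, -0.07, -0.06 and 0.28 in the same order, with arrays of opposite sign in both of the middle comparisons. The second Mt1 probe gave 0.21, -0.28, 0.32 and 0.30, so the 2 probes of Mt1 disagreed in KO mice at 30 min. The mean over the 4 comparisons was 0.14 for each of the Mt1 probes (SE 0.11 and 0.13, limma adjusted p = 1).

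The wider pathway was read from lists of genes, none of which had a member past the fold rule in any comparison or past the adjusted p in the limma fits of the PACAP effect, the time points and the genotypes described here. Of the 24 other genes known to rise with glucocorticoids, 21 had a ratio above 0 in WT mice at 30 min (median 0.19) and 6 in KO mice at 30 min (median -0.30). Angptl4, an inhibitor of lipoprotein lipase, had the highest ratio of that list at 0.81 in KO mice at 30 min, where most of the list lay below 0. Errfi1, a feedback inhibitor of the EGF receptor, had -0.63 and Cebpb -0.60 in the same comparison. Of 14 genes for the mineralocorticoid receptor, chaperones, cofactors and steroid-converting enzymes, 11 were above 0 in WT mice and 3 in KO mice at 30 min (medians 0.17 and -0.17), and Hsp90ab1, a chaperone of the receptor, had -0.79 and Bag1 -0.47 in KO mice. Of the 9 other Kruppel-like factors, relatives of Klf9, 6 were above 0 in WT mice (median 0.24) and 0 in KO mice (median -0.54) at 30 min. Klf4 had 0.70 and Klf7 0.68 in WT mice, and Klf3 -0.61 in KO mice.

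The fasting and fatty acid oxidation genes, to which Pdk4 belongs by function, were above 0 in 9 of 14 cases in WT mice and in 3 of 14 in KO mice at 30 min (medians 0.15 and -0.25). Ppargc1a, a coactivator of mitochondrial genes, had a ratio of -1.51 in KO mice, but its probe was well above background in only 13 of 16 channels. Its levels in that pair, compressed by the offset of the background correction, were 6.63 with vehicle and 6.31 with PACAP. Pdk2 had -0.62 there. The 14 other metallothionein, zinc and oxidative stress genes were split, with 6 above 0 at 30 min in each genotype (medians -0.04 and -0.12). Slc7a11, the cystine transporter gene, had 0.57 in WT mice at 60 min, Nqo1 had 0.45 in KO mice at 30 min and Gclm -0.44 in WT mice at 30 min. Of 15 p53 target and cell cycle inhibitor genes, to which Cdkn1a belongs, 9 were above 0 in WT mice and 3 in KO mice at 30 min (medians 0.05 and -0.17). Ccng1 had 0.75 and Mdm2, whose product degrades p53, 0.50 in WT mice, and Phlda3 had -0.39 in KO mice. Over the 23067 gene names whose brightest probe passed the filter on dim probes, the median was -0.04 in WT mice and -0.01 in KO mice at 30 min.

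Of 9 cell type marker lists, those of muscle, fibroblasts and keratinocytes had medians of the same sign as most of the members in both genotypes at 30 min, and the other 6 did not. All 8 skeletal muscle markers were above 0 in WT mice (median 0.79), and 7 of 8 were below 0 in KO mice (median -0.96). Their summed linear level was 44197 with vehicle and 87824 with PACAP in WT mice, against 61572 and 31317 in KO mice. The 6 fibroblast markers were all above 0 in WT mice (median 0.45) and all below 0 in KO mice (median -0.57), and the 8 keratinocyte markers had medians of 0.14 and -0.72. Other lists ran the opposite way in KO mice at 30 min. Of the 8 hair shaft markers, 6 were past the fold rule upward there and 1 downward (median 1.59), with a median of 0.28 in WT mice. Of the 8 neutrophil markers, 7 were above 0 in KO mice (median 0.44, against -0.02 in WT mice), as were 6 of 7 T cell markers (0.26 against -0.10) and 6 of 8 hepatocyte markers (0.20 against -0.19). Most of the hepatocyte probes and some of the T cell and neutrophil probes were near background. The WT and KO medians were -0.06 and -0.47 for eccrine gland markers, -0.06 and -0.06 for adipocyte markers, and 0.01 and -0.12 for the 10 housekeeping genes. At 60 min the muscle medians were 0.02 and 0.03. The part of these cell types in the members' ratios was not tested.

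The second question was whether their levels differed between the time points. A level here is the log2 intensity of 1 RNA sample, averaged over its 2 arrays after background correction and normalization, and levels are compared only within a probe. Fkbp5 and Tsc22d3 were the 2 of 10 genes whose 4 samples at 60 min all lay above the 4 at 30 min. Among all gene names tested 9.52% did so, and 11.4% lay wholly below. None of the 10 brightest probes lay wholly below, and no test of these counts was made.

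Fkbp5 (probe at chr17:28536060-28536119 of mm9, - strand) read 9.69 with vehicle and 9.94 with PACAP in WT mice at 30 min, and 8.90 and 8.64 in those of KO mice. At 60 min it read 10.19 and 10.22 in WT mice and 10.20 and 10.26 in KO mice. The 4 samples at 60 min thus lay within 0.08 of each other, and the 4 at 30 min were spread over 1.31. The difference of 60 from 30 min was 0.49 in vehicle-treated and 0.27 in PACAP-treated WT mice, and 1.30 and 1.62 in KO mice. The mean difference was 0.92 (SE 0.31) and did not pass in limma (adjusted p = 0.292). The difference between genotypes in this change was 1.08 (SE 0.18), which did not pass either (limma, adjusted p = 0.242). It came from a fit of the 8 samples that counted both samples of a pair as independent. Its SE therefore cannot be set beside that of the mean difference, which had the pair as unit.

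Tsc22d3 (chrX:137074094-137074153, - strand) read 13.83 with vehicle and 13.98 with PACAP in WT mice at 30 min, and 13.98 and 13.77 in those of KO mice. At 60 min it read 14.30 and 14.29 in WT mice and 14.65 and 14.57 in KO mice, so all 4 later samples were higher. The 4 differences were 0.47, 0.31, 0.68 and 0.80 for vehicle and PACAP in WT mice and vehicle and PACAP in KO mice. Their mean was 0.56 (SE 0.12) with a limma adjusted p of 0.231. The change in KO minus that in WT was 0.35 (SE 0.13, limma adjusted p = 0.313), again with the samples of a pair counted as independent. With the 8 samples in the fit and the pair as a random block, the limma adjusted p of the time difference was 0.0337. Over all settings tried it ran from 0.0198 to 0.874.

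Zbtb16 (chr9:48462419-48462478, - strand) shared the pattern of Fkbp5 in KO mice. It read 7.86 and 7.59 in KO mice at 30 min and 8.54 and 8.55 at 60 min, for vehicle and PACAP, whereas WT mice read 8.46 and 8.85 at 30 min and 8.58 and 8.61 at 60 min. The groups overlapped, and the mean difference of 0.38 (SE 0.26) had a limma adjusted p of 0.534. Over the 8 samples the level of Zbtb16 correlated with that of Fkbp5 at r = 0.92, and that of Tsc22d3 at r = 0.76. These points share slides and arrays in pairs, and the correlations are descriptions.

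The receptor gene ran the other way. Nr3c1, on chromosome 18, read 10.33 and 10.97 in WT mice and 10.91 and 10.22 in KO mice at 30 min, for vehicle and PACAP, and 9.87 and 10.07 in WT mice and 10.05 and 10.29 in KO mice at 60 min. Its differences were -0.45, -0.90, -0.86 and 0.07, with only the PACAP-treated KO mice on the other side of 0. The mean was -0.54 (SE 0.10, limma adjusted p = 0.231). On the dimmer Nr3c1 probe all 4 samples at 60 min (6.30 to 6.40) lay below the 4 at 30 min (6.46 to 6.95), and the mean difference was -0.36 (SE 0.10, limma adjusted p = 0.261). That probe was close to background, and its levels there are compressed by the offset of the background correction.

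Klf9 (chr19:23240410-23240469, + strand) had its highest level, 10.61, in the PACAP-treated WT mice at 30 min, and its lowest, 9.10, in the PACAP-treated KO mice at 30 min. The vehicle samples read 9.88 and 9.44 in WT mice and 9.53 and 9.36 in KO mice at 30 and 60 min, and the PACAP samples at 60 min read 9.47 and 9.60. Its mean difference between the times was -0.31 (SE 0.28, limma adjusted p = 0.630), smaller than the spread of the samples. Sgk1 (chr10:21719507-21719566, + strand) read 14.31, 13.85, 14.23 and 14.08 in the vehicle and 14.15, 14.15, 14.05 and 13.93 in the PACAP samples of WT mice at 30 and 60 min and KO mice at 30 and 60 min. The mean difference was -0.18 (SE 0.07, limma adjusted p = 0.337), with overlapping groups.

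**Figure D2:**
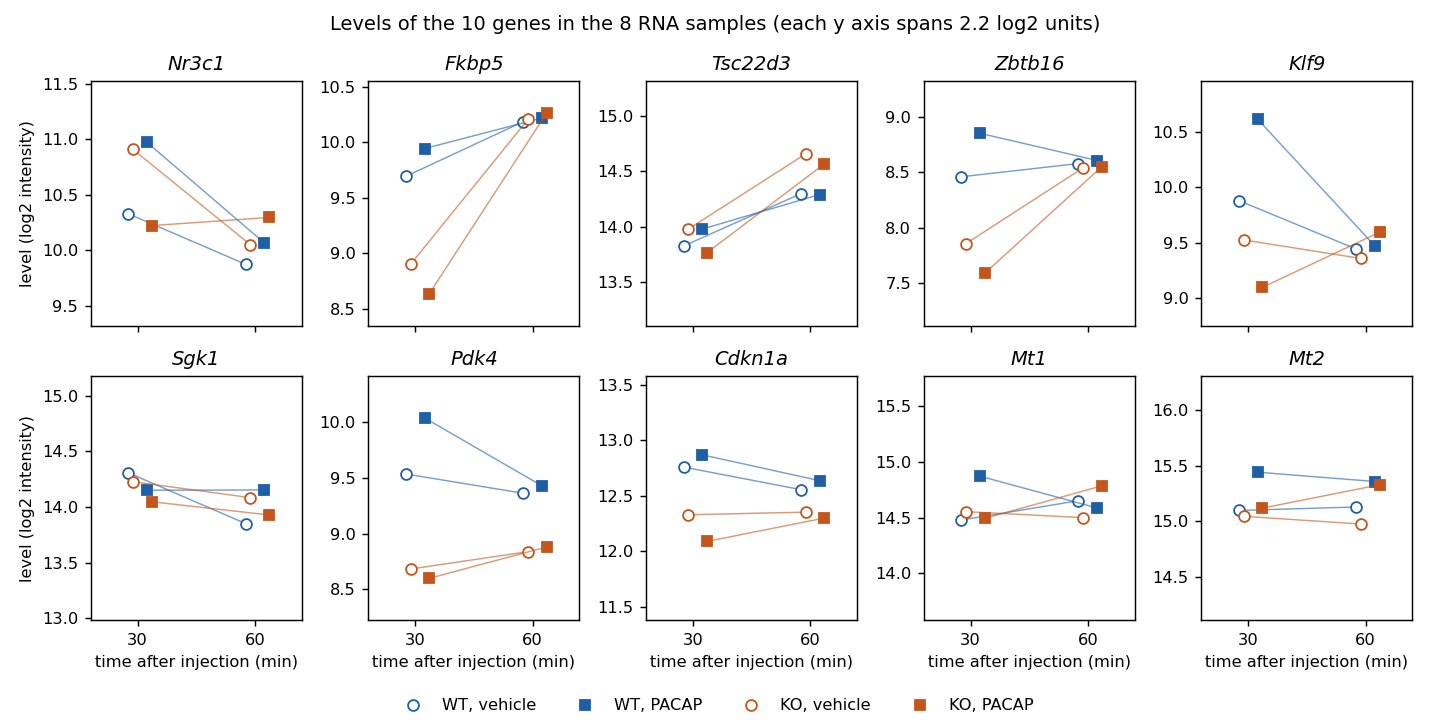
Levels (y axis, log2 intensity) of the 10 genes at 30 and 60 min (x axis) are plotted for the 8 RNA samples, with open circles for vehicle, filled squares for PACAP, blue for WT and orange for KO mice, and each y axis spanning 2.2 units. The 60 min points of Fkbp5 and Tsc22d3 all lie above their 30 min points, and the KO points of Pdk4 and Cdkn1a all lie below the WT points.

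The metallothionein genes did not differ between the times by more than their spread. Mt2 (chr8:96697371-96697430, + strand) read 15.10, 15.13, 15.04 and 14.97 in the vehicle and 15.44, 15.36, 15.12 and 15.33 in the PACAP samples of WT mice at 30 and 60 min and KO mice at 30 and 60 min. The PACAP sample was the higher one in each of the 4 pairs. Mt1 (chr8:96704165-96704224, + strand) read 14.48, 14.65, 14.55 and 14.50 with vehicle and 14.87, 14.59, 14.49 and 14.79 with PACAP in the same order. The mean difference of 60 from 30 min was 0.02 for Mt2 (SE 0.07, limma adjusted p = 0.902) and 0.03 for Mt1 (SE 0.08, limma adjusted p = 0.876). The second Mt1 probe, at chr8:96703844-96703903, gave -0.42 (SE 0.16, limma adjusted p = 0.323), so again the 2 probes of this gene disagreed.

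The other genes known to rise with glucocorticoids were read in the same way. Of the 24, 9 had all 4 samples at 60 min above the 4 at 30 min, or 37.5%, against 9.52% of all gene names, and 1 had them all below, against 11.4%. The median difference was 0.12 over the list, with 16 of 24 above 0, and -0.01 over all gene names. No test of the list was made, and limma called 0 of all probes for the time points, with 5361 at an unadjusted p below 0.05. The share above was 37.5% under quantile normalization and 45.8% on the scanner software's processed signals, where the shares over all gene names were 9.43% and 10.9%. From single dye orientations it was 37.5% and 33.3%, against 4.24% and 10.8%. With 2 samples against 2, a setting chosen after the data were seen, it was 54.2% in vehicle samples, against 22.1% of all gene names, and 45.8% in PACAP samples, against 15.9%. Of the 10 members, 3 then lay wholly above and 3 wholly below in vehicle samples, and 2 above and 0 below in PACAP samples. The shares of all gene names wholly below were 28.1% in vehicle and 17.7% in PACAP samples.

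The 9 genes are named here after their values were seen. Sult1a1, a sulfotransferase gene, read 10.32 to 10.57 at 30 min and 11.01 to 11.39 at 60 min, a mean difference of 0.81 (SE 0.07). Klf15, a factor induced by the receptor that acts on amino acid metabolism, read 8.43 to 8.88 and then 9.34 to 9.51, a difference of 0.76 (SE 0.10). Errfi1 differed by 0.72 (SE 0.21), Arrdc2 by 0.63 (SE 0.17), Rhob by 0.61 (SE 0.13) and Cebpd, a C/EBP transcription factor gene of acute responses, by 0.61 (SE 0.18). Glul, the glutamine synthetase gene, differed by 0.53 (SE 0.17), Il1r2, which codes for the decoy receptor of interleukin 1, by 0.27 (SE 0.10), and Ddit4, an inhibitor of mTORC1, by 0.24 (SE 0.10). Their limma adjusted p ran from 0.23 to 0.35.

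Among the other 15 genes, Tat, the tyrosine aminotransferase gene, had differences of 0.35, 0.28, 0.36 and 0.19 for vehicle and PACAP in WT mice and vehicle and PACAP in KO mice, with overlapping groups. Nfkbia and Anxa1 were also above 0 in all 4, and Angptl4 was below 0 in all 4. Per1, a clock gene with a known response to the receptor, had -0.29, -0.88, -0.02 and 0.74 in the same order. Dusp1, a phosphatase gene that damps MAP kinases, had 0.28, 0.17, -0.54 and -0.61, with opposite signs in the genotypes. Zfp36 had 0.71, 0.12, -0.32 and -0.55. Pck1, the gluconeogenic enzyme gene, was the 1 gene of the list that lay wholly below, with a mean of -0.33 (SE 0.09, limma adjusted p = 0.25).

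**Figure D3:**
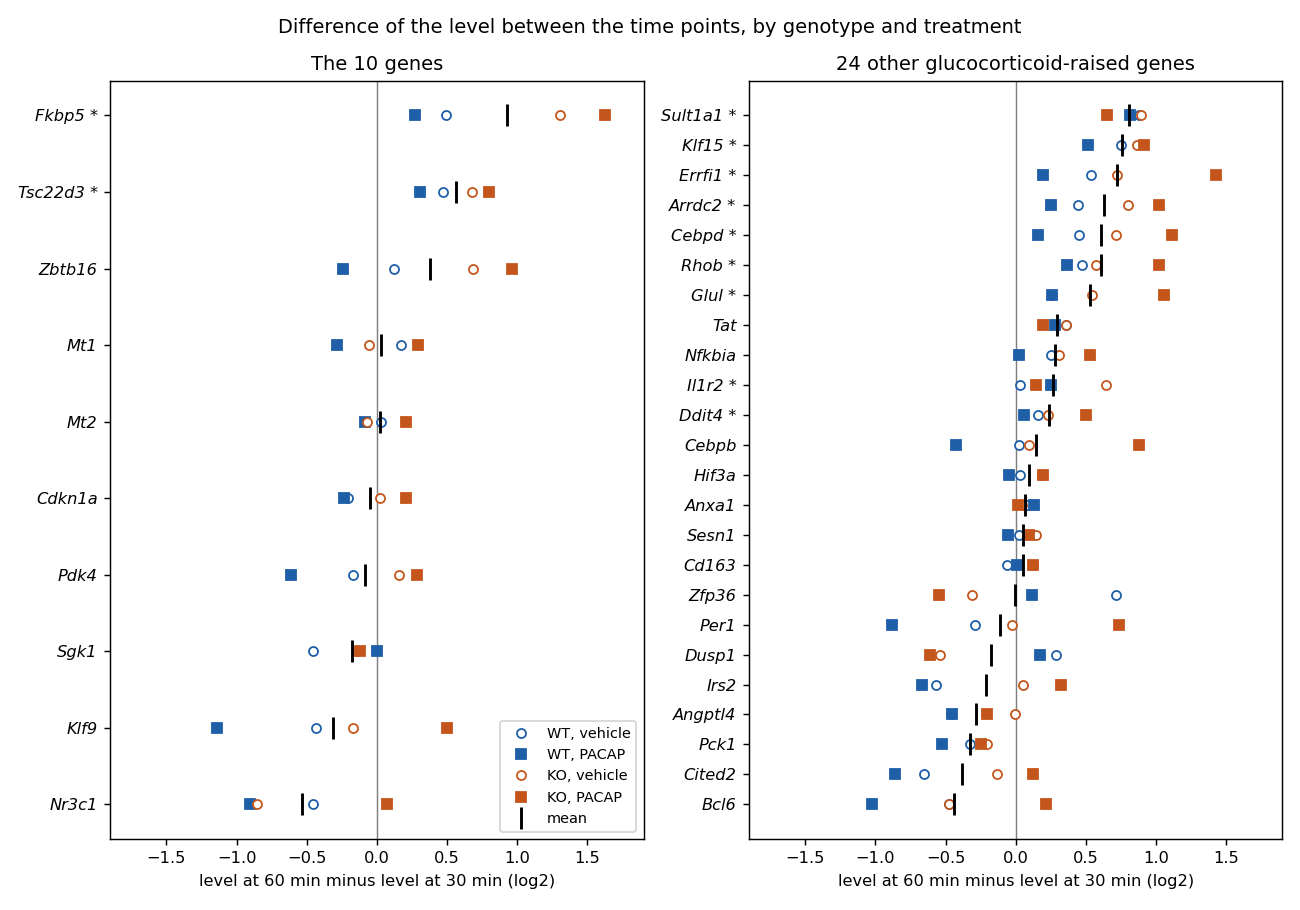
The level at 60 min minus the level at 30 min (x axis, log2) is plotted for the 10 genes (left) and the 24 other glucocorticoid-raised genes (right), with open circles for vehicle, filled squares for PACAP, blue for WT and orange for KO mice, and a black tick for the mean. An asterisk marks the 2 and 9 genes whose 4 samples at 60 min all lie above the 4 at 30 min.

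Around the receptor itself, 2 of 13 tested genes lay wholly above at 60 min and 4 wholly below, or 15.4% above against 9.52% of all gene names and 30.8% below against 11.4%. Hsd11b1, whose enzyme regenerates active glucocorticoid inside cells, read 9.91 to 10.34 at 30 min and 10.45 to 10.89 at 60 min (difference 0.62, SE 0.16), and Fkbp4, a co-chaperone that opposes Fkbp5, differed by 0.23 (SE 0.07). The coactivator genes Ncoa1 (-0.45, SE 0.07) and Ncoa2 (-0.54, SE 0.09) and the co-chaperone gene Stip1 (-0.35, SE 0.07) were among those wholly below, the side on which Nr3c1 had its mean. These 5 genes, too, are named after their values were seen, and none passed in limma (adjusted p from 0.23 to 0.26). In the metallothionein, zinc and oxidative stress list and in the fasting list, 0 of 14 genes lay wholly above and 0 wholly below. In the p53 list 0 of 15 lay above and 2 below, or 13.3%, and among the Kruppel-like factors 0 of 9 above and 1 below, or 11.1%, which was Klf3 at -0.69 (SE 0.12).

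Marker lists were set beside the time difference. All 8 hair shaft markers were higher in mean at 60 min (median 1.22), with a summed level of 4816 to 8835 at 30 min and 5990 to 25716 at 60 min. The skeletal muscle markers were above 0 in 6 of 8 cases (median 0.35), with 31317 to 87824 at 30 min and 53608 to 64016 at 60 min. Keratinocyte (median -0.06), fibroblast (-0.20), adipocyte (0.07), neutrophil (-0.02), T cell (0.00), eccrine gland (-0.15) and housekeeping genes (0.01) lay nearer 0. Hepatocyte markers, near background in 7 samples, had a summed level of 565 to 632 there and 1110 in the vehicle sample of WT mice at 60 min. The part of these cells in the time difference was not tested. Since a different sample stands at each time and all mice were under anaesthesia after an injection, the time point, the anaesthesia and the animals cannot be told apart.

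The last comparison set KO against WT levels, on different slides. Pdk4 and Cdkn1a were the 2 of 10 genes whose 4 KO samples all lay below the 4 WT samples, against 8.25% of all gene names, and 0 of 10 lay wholly above, against 9.25%. These counts, too, were not tested. Pdk4 (chr6:5433441-5433500, - strand) read 9.54 and 10.04 at 30 min and 9.36 and 9.43 at 60 min in WT mice, for vehicle and PACAP, and 8.68 and 8.60 at 30 min and 8.84 and 8.88 at 60 min in KO mice. Its mean difference was -0.84 (SE 0.18, limma adjusted p = 0.398). Cdkn1a (chr17:29237377-29237436, + strand) read 12.76 and 12.87 at 30 min and 12.56 and 12.64 at 60 min in WT mice, and 12.33 and 12.09 at 30 min and 12.35 and 12.30 at 60 min in KO mice. Its mean difference was -0.44 (SE 0.12, limma adjusted p = 0.398). The 2 dimmer Cdkn1a probes, above background in 8 and 7 of 16 channels, had levels between 6.03 and 6.26 in the 8 samples and could not speak to this.

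**Figure D4:**
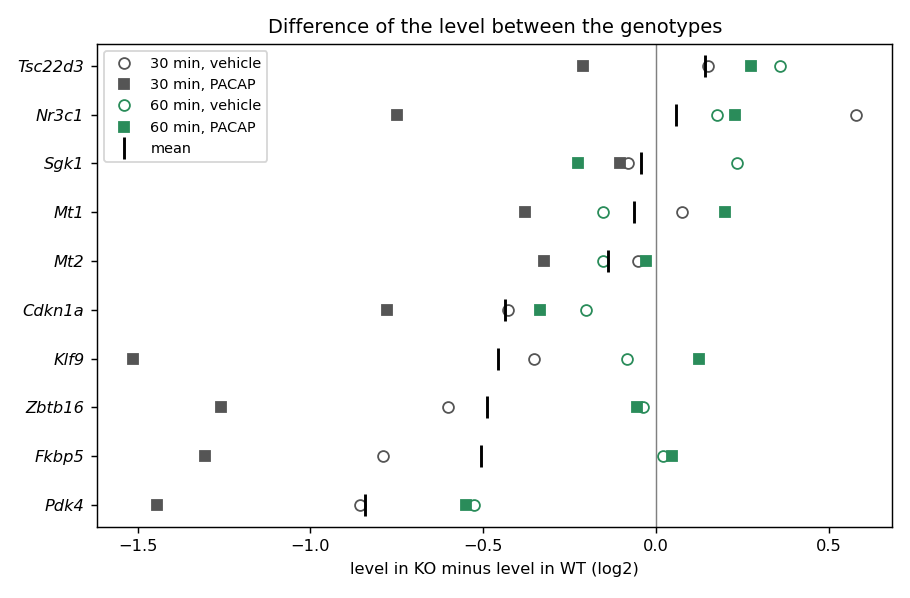
The level in KO minus the level in WT (x axis, log2) is plotted for the 10 genes (y axis) at 30 min (grey) and 60 min (green), with open circles for vehicle, filled squares for PACAP and a black tick for the mean. All 4 differences of Pdk4 and Cdkn1a lie left of 0, and those of Fkbp5 and Zbtb16 lie far left at 30 min and near 0 at 60 min.

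Fkbp5, Zbtb16 and Klf9 had larger genotype differences at 30 than at 60 min. Fkbp5 was lower in KO mice by 0.79 with vehicle and by 1.31 with PACAP at 30 min, and the differences at 60 min were 0.02 and 0.05. Zbtb16 gave -0.60 and -1.26 at 30 min and -0.04 and -0.05 at 60 min. Klf9 gave -0.35 and -1.51, then -0.08 and 0.12. Over both times, limma gave Fkbp5 -0.51 (SE 0.31, adjusted p = 0.519), Zbtb16 -0.49 (SE 0.26, adjusted p = 0.480) and Klf9 -0.46 (SE 0.28, adjusted p = 0.515). Tsc22d3 (0.14), Nr3c1 (0.06), Sgk1 (-0.04), Mt1 (-0.06) and Mt2 (-0.14) had mean differences nearer 0. In this fit limma called 0 probes of 30351, with 3770 at an unadjusted p below 0.05.

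The lists gave the surroundings of Pdk4. Of the 14 fasting and fatty acid oxidation genes 13 were lower in KO mice in mean (median -0.31), but 0 lay wholly below and 1 wholly above. All 8 skeletal muscle markers were lower in mean (median -0.29), with a summed level of 44197 to 87824 in WT and 31317 to 61572 in KO samples. Among all gene names tested, 11636 of 23067 were higher in KO mice (median 0.002). The other cell type lists had medians of 0.56 (hair shaft), 0.23 (fibroblast), 0.14 (neutrophil), 0.09 (T cell), 0.04 (adipocyte), -0.01 (keratinocyte), -0.09 (eccrine gland) and -0.20 (hepatocyte, mostly near background). Of the p53 and cell cycle inhibitor genes 11 of 15 were lower (median -0.11), and of the other glucocorticoid-raised genes 17 of 24 (median -0.08). The part of muscle in the Pdk4 level was not tested.

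The genes whose levels over the 8 RNA samples were most like those of Fkbp5 were Wnt11 (Pearson r = 0.99), Sardh (0.99), Cd74 (0.98), Hsf4 (0.98) and Ski (0.98), out of 16143 gene names well above background in all samples. Most like Mt2 were an unnamed probe (r = 0.93), Ptgs2 (0.91), Gm34249 (0.90), Has2 (0.88) and Pip5k1a (0.87), and Mt1 followed Mt2 at 0.80. With 8 samples that share arrays in pairs and so many candidates, these values only describe which patterns look alike.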

How the data were processed

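The 10 genes, the gene lists and the tests were chosen with earlier results of these data known. The authors read the scans with Agilent Feature Extraction (version 12.0.3.1 per the file headers, 11.0.1.1 in the submitters' processing notes), which subtracted background and applied a LOWESS fit within each array. From those signals came the deposited log10 ratios, red divided by green, of which the software had set between 13.4% and 25.0% to 0. The deposited p-value of a spot comes from the software's error model for 1 array and does not speak of animals. Also deposited were intensity values, namely mean signals, local backgrounds and processed signals of each channel. The authors' matrix of log10 ratios was used as an alternative.

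Control spots and outlier spots (198 to 342 per array) were left out, and 0 spots were saturated. Spots of a probe were averaged, with the median p-value. Ratios were turned to PACAP over vehicle by the dyes in the labels, put on the log2 scale and averaged over both arrays of a pair. Levels came from mean signals after normexp (offset 50), a loess fit per array and Aquantile across arrays (limma 3.58.1, R 4.3.3). limma (lmFit, eBayes, Benjamini-Hochberg over 30351 probes) fitted 4 values, 1 per pair. For levels the pair mean was fitted with genotype and time, which left 1 residual degree of freedom. The fit of genotype by time on the 8 samples was added after the data were seen, and it counted both samples of a pair as independent. Of the lists, genes past a threshold were to be named, or otherwise the 3 with the largest mean ratio in size, and for Fkbp5 and Mt2 the 5 genes with the most similar levels. Some genes under this rule are not reported here. Scripts (Python 3.11.15, pandas 2.3.3, numpy 2.4.6, matplotlib 3.10.9) were tested on simulated data. Probe coordinates are mm9 as in the files, where exon and UTR positions were not determined. RefSeq promoters are GRCm38.p6, and no coordinate was converted. The WT and KO samples came from different mice, since the genotypes differ. The methods do not say whether the PACAP and vehicle samples of a pair did, or how many mice entered each sample. The p-values therefore measure the spread between these samples only. Alternatives were other background corrections, centring, scalings, filters, single dye orientations, single pairs left out and other units of replication.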

Additional observations from a re-analysis of the deposited data

Results flagged for a closer look

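Sgk1 had 1 ratio that stood apart from the other 3 comparisons. Its log2 ratio of PACAP over vehicle was 0.29 in WT mice at 60 min and lay between -0.19 and -0.16 elsewhere, so that the gap made up 0.93 of the whole range. Such a gap is met by chance in about 1 in 20 groups of 4, and 30 groups were looked at.

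Cdkn1a had mean ratios above 0 at both times in WT mice and below 0 at both times in KO mice. The difference of KO from WT was -0.24 (SE 0.19) and did not pass in limma (adjusted p = 0.839).

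Pdk4 was lower at 60 than at 30 min in both treatments in WT mice (-0.17 and -0.61) and higher in both in KO mice (0.16 and 0.28). The change in KO minus that in WT was 0.61 (SE 0.21, limma adjusted p = 0.292), in a fit that counted both samples of a pair as independent. Cdkn1a had the same arrangement, with -0.20 and -0.23 in WT mice and 0.02 and 0.21 in KO mice. Its difference in that fit was 0.33 (SE 0.14, limma adjusted p = 0.331). In neither can genotype be told apart from slide.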

How the results depend on the processing

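No paired analysis was possible because the replicate numbers mark the 2 dye orientations of the same RNA pair, which were averaged to 1 value before any fit, so these numbers cannot serve as a block. The PACAP and vehicle samples of a pair were compared within the pair, by their ratio. Of the counts of members past a threshold, all 0 in the report, most stayed at 0. For the time points, limma called 1 member probe (Tsc22d3, adjusted p = 0.0337) with the pair as a random block, 1 (Tsc22d3, 0.0198) with the 8 samples as separate values, and 2 (Fkbp5, with a difference of 1.05 and adjusted p = 0.000974, and a dim Cdkn1a probe) on the processed signals. For KO against WT it called 2 with separate values (Pdk4, 0.0342, and Cdkn1a, 0.045) and 1 on the processed signals (Pdk4, -0.96, 0.00193). These settings also called 2838, 4850 and 3773 of all probes for time, and 3117 and 3555 for genotype, and fits of separate values count both samples of a pair as independent. From either dye orientation alone, 1 member probe (the dim Cdkn1a probe) was called for the mean PACAP effect (2118 and 2318 of all probes), against 0 with a pair left out. By the fold rule in KO mice at 30 min, between 0 and 1 was called from a single orientation. The fold rule's counts over all probes, 138, 273, 279 and 115 in WT at 30 and 60 min and KO at 30 and 60 min, ran from 57 to 870, 170 to 837, 164 to 1197 and 72 to 701 over the settings. The PACAP effect in KO minus WT was called at 0 probes, at 17 with time as a covariate (0 of them members'), and at up to 170 with a pair left out (170 without WT at 30 min, 83 without WT at 60 min).

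No value whose sign turned passed a test in its main setting. The dim Cdkn1a probe, given below, passed in limma with opposite signs from the single dye orientations. With an array or a pair left out, the mean PACAP effect ran from -0.10 to 0.092 for Fkbp5 (0.019 with normexp and loess), -0.20 to 0.10 for Tsc22d3, -0.14 to 0.14 for Zbtb16, -0.17 to 0.028 for Sgk1, -0.11 to 0.038 for Cdkn1a, -0.024 to 0.20 for Pdk4, -0.11 to 0.33 for Nr3c1, -0.10 to 0.31 for Klf9 and -0.056 to 0.33 for Mt1. The effect in KO minus WT ran from -0.43 to 0.017 for Fkbp5, -0.29 to 0.19 for Mt1 and -0.23 to 0.14 for Mt2, and with no change of sign from -1.09 to -0.12 for Nr3c1, -0.88 to -0.093 for Klf9, -0.64 to -0.17 for Zbtb16 and -0.55 to -0.0093 for Pdk4. The time difference ran from -0.017 to 0.060 for Mt2 and -0.19 to 0.018 for Pdk4. It was -0.019 for Mt2 in vehicle samples alone, and -0.029 for Mt2 and 0.038 for Cdkn1a on the processed signals. The KO minus WT level was 0.076 for Sgk1 in vehicle samples alone and -0.26 for Nr3c1 in PACAP samples alone, and on the processed signals 0.064 and -0.012. The cause of these changes was not tested.

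The limits are few. Each comparison of PACAP with vehicle rests on 1 pair of RNA samples, and a time point on 2 pairs. Signals near background, as on the dim Cdkn1a and Nr3c1 probes, are compressed. On the dim Cdkn1a probe, the mean PACAP effect was -1.07 from the arrays with PACAP in Cy3 (limma adjusted p = 0.0471) and 1.04 from those with PACAP in Cy5 (0.0179), so its sign turned with the dye.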
